A study of Mus musculus with 9 samples.

Results

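The 8 genes described here encode transcription factors of the ventral neural tube: the homeobox genes Nkx2-2, Nkx2-9, Nkx6-1 and Nkx6-2, the forkhead genes Foxa1 and Foxa2, the bHLH-PAS gene Sim1 and the bHLH gene Olig2. They were chosen by name, with earlier results of these data known. They are 8 of 21356 gene symbols in the table, and all 8 were among the 14029 genes tested. RNA from the midbrain of 9 C57BL/6 mouse fetuses at E13.5 was sequenced as poly-A selected libraries, 3 per genotype. The floxed control was Gpr161 f/f without Cre, the Cre control was Gpr161 f/+;Wnt1-Cre with 1 floxed allele, and the Gpr161 cKO was Gpr161 f/f;Wnt1-Cre. Every fetus therefore carried at least 1 floxed allele, and Wnt1-Cre was present in both the Cre control and the cKO. Gpr161 is an orphan receptor of the primary cilium that restrains sonic hedgehog (Shh) signaling, and Wnt1-Cre recombines in the dorsal midbrain and neural crest lineages, so that the dissected midbrain also held cells outside these lineages. The comparisons ask what loss of Gpr161 in these lineages changes in the midbrain, and whether Cre itself contributes.

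Shh from the notochord and floor plate sets up the dorsoventral pattern of the neural tube. The cells nearest the source keep the highest Gli activity, and each level turns on its own set of transcription factors, which then repress those of the neighboring domains. Foxa2 and Foxa1 mark the floor plate and, in the midbrain, the progenitors of dopaminergic neurons. Nkx2-2 and its close relative Nkx2-9 lie next to the floor plate, Nkx6-1 and Nkx6-2 extend further dorsally, and Olig2 is known from motor neuron and oligodendrocyte progenitors. Sim1 marks a ventral domain of the neural tube and part of the hypothalamus.

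All values are log2 values as the authors deposited them, normalized between libraries. Whether they were divided by transcript length is not stated, so levels are compared between libraries and not between genes. Read counts are not in the table, so the sequencing depth cannot be given, and the values of weakly expressed genes are compressed. A gene passed at an adjusted p under 0.05 (limma, Benjamini-Hochberg over the genes tested) and was a DEG when its fold change was also over 1.5. Whether the fetuses came from separate litters is not stated, so p-values measure the spread between these libraries, and in bulk tissue fewer expressing cells and less RNA per cell cannot be told apart. The whole-gene value of Gpr161 did not fall in the libraries labelled cKO (11.77 ± 0.030, 11.88 ± 0.096 and 11.88 ± 0.12 in floxed control, Cre control and cKO, SD, n = 3 each), and since the table does not separate exons it does not check the deletion. Wnt1, whose promoter drives Cre, had values of 9.19 ± 0.091 (floxed control), 10.94 ± 0.065 (Cre control) and 10.65 ± 0.13 (cKO, SD, n = 3 each), higher in the libraries whose labels name the transgene. The midbrain genes En1, En2, Otx2 and Pax5 were expressed in every library.

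Of the 8 genes, Nkx6-2 and Nkx2-9 had the highest fold changes, and the 250 bases before their annotated starts are shown for that reason. They come from RefSeq on GRCm38.p6, are written 5′ to 3′ on the strand of the gene and overlap no annotated exon. Capitals mark the CCAAT box (CCAAT), the GC box (GGGCGG) and the core of the Gli binding motif (CCACCCA), each searched on both strands. Both genes lie on the minus strand, at chr7:139582798-139583047 and chr12:56613285-56613534.
Nkx6-2: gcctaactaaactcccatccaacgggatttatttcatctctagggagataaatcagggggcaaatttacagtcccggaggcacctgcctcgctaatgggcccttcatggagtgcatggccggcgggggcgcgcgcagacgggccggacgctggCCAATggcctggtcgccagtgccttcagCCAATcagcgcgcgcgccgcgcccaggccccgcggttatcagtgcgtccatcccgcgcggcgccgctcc
Nkx2-9: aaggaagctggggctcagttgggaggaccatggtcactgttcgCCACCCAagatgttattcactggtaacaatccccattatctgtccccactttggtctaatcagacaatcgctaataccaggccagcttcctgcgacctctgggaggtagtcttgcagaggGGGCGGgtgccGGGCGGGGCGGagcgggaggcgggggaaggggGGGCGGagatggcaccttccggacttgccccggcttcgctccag
The Nkx6-2 window held 2 CCAAT boxes, 97 and 69 bases before the start. The Nkx2-9 window held 4 GC boxes, of which 2 overlap, and 1 Gli core, 207 bases before the start. A Gli core also lay 17 bases before the RefSeq start of Olig2, which did not pass, so that 2 of the 10 windows of the 8 genes held one. The GENCODE start of Olig2, 91225457, lies inside that window, and this match lies past it, in annotated exon. Exon bases were also in the windows of Nkx2-2, Nkx6-1 (250 of 250), Foxa1 and Sim1, and Foxa2 has more than 1 window. A CCAAT box was in 4 of these windows and a GC box in 6. Of 32851 promoter windows of this length, 33.8% held a CCAAT box, 32.7% a GC box and 8.11% a Gli core. The longer Gli motif GACCACCCA was in 0.225% of all windows and in 0 of the 10 windows of the 8 genes. Such matches describe these letters only.

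All 4 Nkx genes were higher in the cKO than in either control, and Foxa1, Foxa2, Sim1 and Olig2 did not pass in any comparison. Against the floxed control, 4 of the 8 genes passed as higher and 3 of them were DEGs. Over all genes tested, 19.5% passed as higher and 1.34% were DEGs that were higher. Against the Cre control, again 4 of 8 passed and 3 were DEGs, where 4.86% of all genes passed as higher and 0.335% were higher DEGs. The median log2 fold change of the 8 genes was 0.36 and 0.29 in turn, beside 0.011 and 0.012 over all genes tested. Since the 8 were chosen with earlier results of these data known, these shares are a description and not a test. For each of the 4 Nkx genes the lowest cKO library lay above the highest of the 6 control libraries, a pattern found in 14.7% of the genes tested, while the cKO and control libraries overlapped for the other 4.

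**Figure D1:**
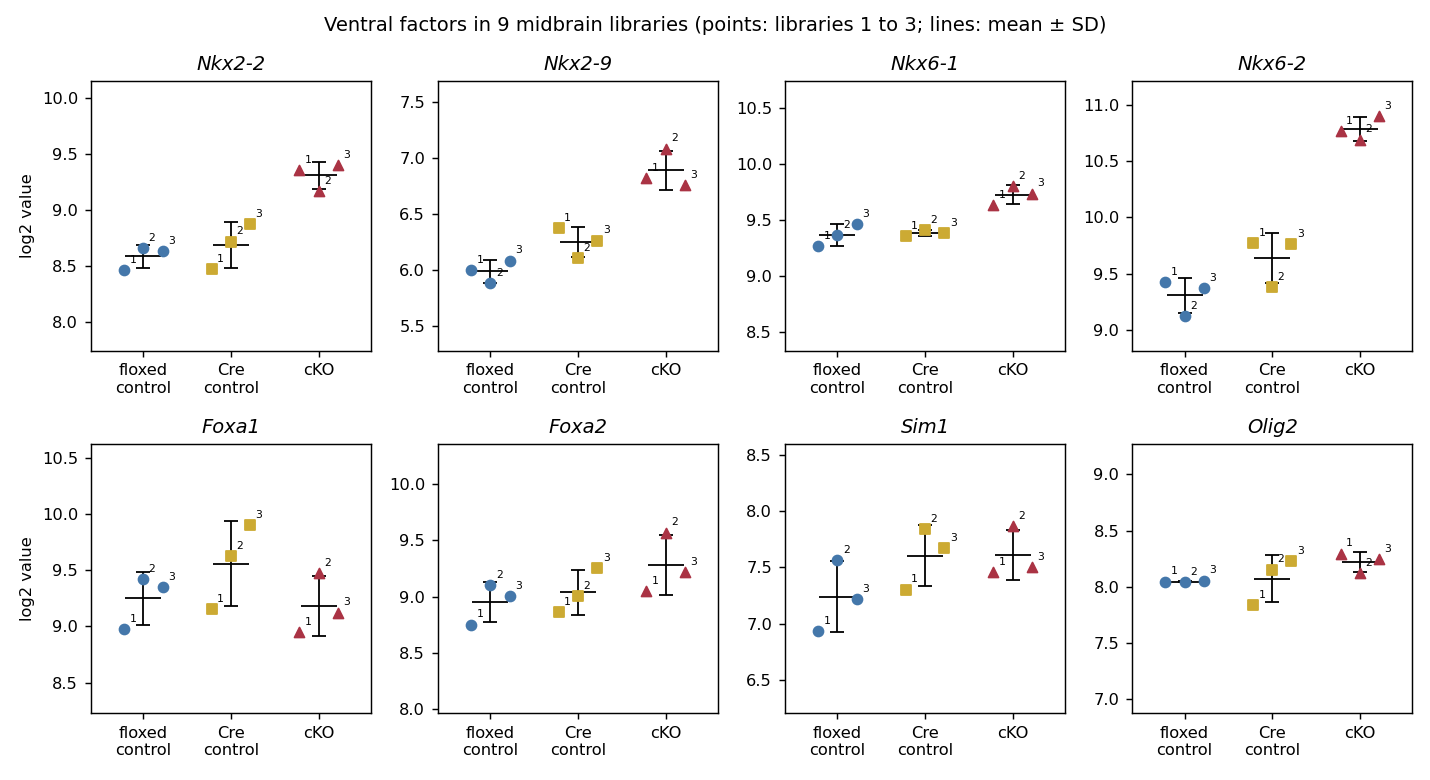
Log2 value (vertical axis, the same span in each panel) of each of the 8 genes in the 9 libraries, by genotype; numbered points are libraries and lines are the mean ± SD (n = 3). The 3 cKO libraries lie above all 6 control libraries for Nkx2-2, Nkx2-9, Nkx6-1 and Nkx6-2 and overlap with them for Foxa1, Foxa2, Sim1 and Olig2.

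Nkx6-2, a homeobox repressor of ventral and intermediate progenitors, had the largest change of the 8. Its log2 values were 9.42, 9.12 and 9.37 (floxed controls), 9.77, 9.38 and 9.76 (Cre controls) and 10.77, 10.69 and 10.90 (cKO). The cKO libraries lay close together and at least 0.92 above every control. Relative to the floxed control its log2 fold change was 1.48 (SE 0.11, adjusted p = 1.27e-04, limma), a 2.80-fold rise. Relative to the Cre control it was 1.15 (SE 0.11, adjusted p = 0.00118), 2.22-fold. The Cre control itself was at 9.64 ± 0.23 beside 9.31 ± 0.16 in the floxed control (SD, n = 3 each), with 2 of its 3 libraries above all floxed controls, and this difference of 0.33 did not pass (unadjusted p = 0.0147, adjusted p = 0.204). The gene lies on chromosome 7 of GRCm38 from 139579376 to 139582797, where 246 exonic bases are shared with Inpp5a on the opposite strand. Inpp5a also rose, by 0.30 (adjusted p = 0.00150) relative to floxed and 0.24 (adjusted p = 0.0187) relative to Cre controls. Whether reads were counted by strand is not stated, and the part of Inpp5a in the Nkx6-2 value was not tested.

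Nkx6-1, which shares the domain of Nkx6-2 and extends to the floor plate, rose far less. It was at 9.27, 9.36 and 9.47 (floxed controls), 9.36, 9.41 and 9.38 (Cre controls) and 9.64, 9.80 and 9.74 (cKO). The lowest cKO library exceeded the highest control by 0.17. It exceeded the floxed control by 0.36 (SE 0.062, adjusted p = 0.00209) and the Cre control by 0.34 (SE 0.062, adjusted p = 0.0138), under the limit of a DEG in both. Without Cre control replicate 3 the latter no longer passed (0.34, adjusted p = 0.0520). Between the controls the difference was 0.016, with a 95% confidence interval from -0.12 to 0.15. Nkx6-1 lies on chromosome 5 from 101658139 to 101664996, and its transcripts share 0 stretches of 31 bases with those of Nkx6-2.

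Nkx2-2, which specifies the progenitors beside the floor plate, was at 8.46, 8.66 and 8.64 (floxed controls), 8.47, 8.72 and 8.88 (Cre controls) and 9.35, 9.17 and 9.40 (cKO). All cKO libraries were higher than all controls, with a gap of 0.29 between the nearest pair. Log2 fold changes were 0.72 (SE 0.10, adjusted p = 0.00104, 1.65-fold) over the floxed control and 0.62 (SE 0.10, adjusted p = 0.0119, 1.54-fold) over the Cre control. The latter lies near the limit of 1.5-fold, 0.585 on the log2 scale, and fell to 0.51 when Cre control replicate 1 was left out and to 0.57 when cKO replicate 3 was, both still past the adjusted p. On chromosome 2, from 147177546 to 147194243, the gene overlaps the antisense transcripts Nkx2-2os, with 278 shared exonic bases, and 6430503K07Rik, with 0, and the table lists neither. Whether reads were counted by strand is not stated, so in the bases shared with Nkx2-2os its reads and those of Nkx2-2 cannot be told apart.

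Nkx2-9, a close relative of Nkx2-2 whose values did not reach a stricter minimum of 5 cpm in 3 libraries, was at 6.00, 5.89 and 6.09 (floxed controls), 6.37, 6.11 and 6.26 (Cre controls) and 6.82, 7.08 and 6.76 (cKO). The groups stood in steps, and every Cre control library was above every floxed control library. Nkx2-9 rose by 0.90 over the floxed control (SE 0.098, adjusted p = 3.76e-04, 1.86-fold) and by 0.64 over the Cre control (SE 0.098, adjusted p = 0.00814, 1.56-fold). The latter was 0.57 when Cre control replicate 2 was left out and 0.54 when cKO replicate 2 was, under the fold limit and past the adjusted p. The Cre control exceeded the floxed control by 0.26 (unadjusted p = 0.0253, adjusted p = 0.234), which did not pass. Nkx2-9 lies on chromosome 12 from 56611389 to 56613284.

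Foxa1 and Foxa2, forkhead factors of the floor plate, had wider errors than the Nkx genes, with an SE of the log2 fold change of 0.19 and 0.14 beside at most 0.11. Foxa1 was at 8.97, 9.42 and 9.35 (floxed controls), 9.15, 9.62 and 9.90 (Cre controls) and 8.95, 9.48 and 9.12 (cKO). The cKO lay within the range of the controls except for its lowest library. Its log2 fold change from the floxed control was -0.066 (95% confidence interval -0.50 to 0.37, adjusted p = 0.810), and that from the Cre control was -0.38 (-0.81 to 0.055, adjusted p = 0.224). Without Cre control replicate 1, the latter was -0.58 and passed (adjusted p = 0.0368). Over all genes tested, 3292 passed in that fit, beside 1363 with all libraries. Foxa1 lies on chromosome 12 from 57540628 to 57546916.

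Foxa2, a known direct target of Gli in the floor plate, was at 8.75, 9.10 and 9.01 (floxed controls), 8.86, 9.003 and 9.25 (Cre controls) and 9.05, 9.57 and 9.22 (cKO). Its highest library was a cKO library, and the other 2 cKO libraries lay within the range of the controls. Compared with the floxed control the log2 fold change was 0.32 (95% confidence interval 0.0048 to 0.64, adjusted p = 0.0995), compared with the Cre control 0.24 (-0.081 to 0.56, adjusted p = 0.292), and neither passed. These intervals include changes as large as that of Nkx6-1 as well as values near 0. Foxa2 lies on chromosome 2 from 148042877 to 148046969, and its transcripts share 8 stretches of 31 bases with those of Foxa1, of 2365 in Foxa2 and 3295 in Foxa1.

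Sim1 was at 6.93, 7.56 and 7.22 (floxed controls), 7.30, 7.84 and 7.67 (Cre controls) and 7.46, 7.86 and 7.50 (cKO). The cKO and the Cre control covered nearly the same range, and the floxed control reached lower. Sim1 differed from the floxed control by 0.37 (95% confidence interval -0.029 to 0.77, adjusted p = 0.128) and from the Cre control by 0.0032 (-0.39 to 0.40, adjusted p = 0.993). Without floxed control replicate 2 the former was 0.53 and passed (adjusted p = 0.0401). Sim1 lies on chromosome 10 from 50894754 to 50989152.

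Olig2 was at 8.05, 8.04 and 8.05 (floxed controls), 7.84, 8.15 and 8.23 (Cre controls) and 8.29, 8.12 and 8.25 (cKO). Every cKO library was above every floxed control library, and 2 Cre control libraries lay among the cKO values. Olig2 differed from the floxed control by 0.18 (95% confidence interval -0.033 to 0.38, adjusted p = 0.163) and from the Cre control by 0.15 (-0.060 to 0.36, adjusted p = 0.314), both under that of any Nkx gene. Olig2 lies on chromosome 16 from 91225457 to 91228677.

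Between the controls, 0 of the 8 genes passed by limma, and 2 of them, Nkx6-2 and Nkx2-9, had an unadjusted p under 0.05. Over all genes, 0.0499% passed as higher and 0.00713% as lower in the Cre control. All 8 point estimates were above 0, from 0.016 for Nkx6-1 to 0.37 for Sim1. Their median was 0.18, beside -0.0010 over all genes tested. Those of Foxa2, Nkx6-1 and Olig2 fell below 0 in some fits that left out 1 library. The shares of all genes above 0, or with an unadjusted p under 0.05, were not counted, so both counts are only a description. The widest confidence interval was that of Foxa1, from -0.12 to 0.74, so that a change of the size of the Nkx2-2 rise could not be told from none there.

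**Figure D2:**
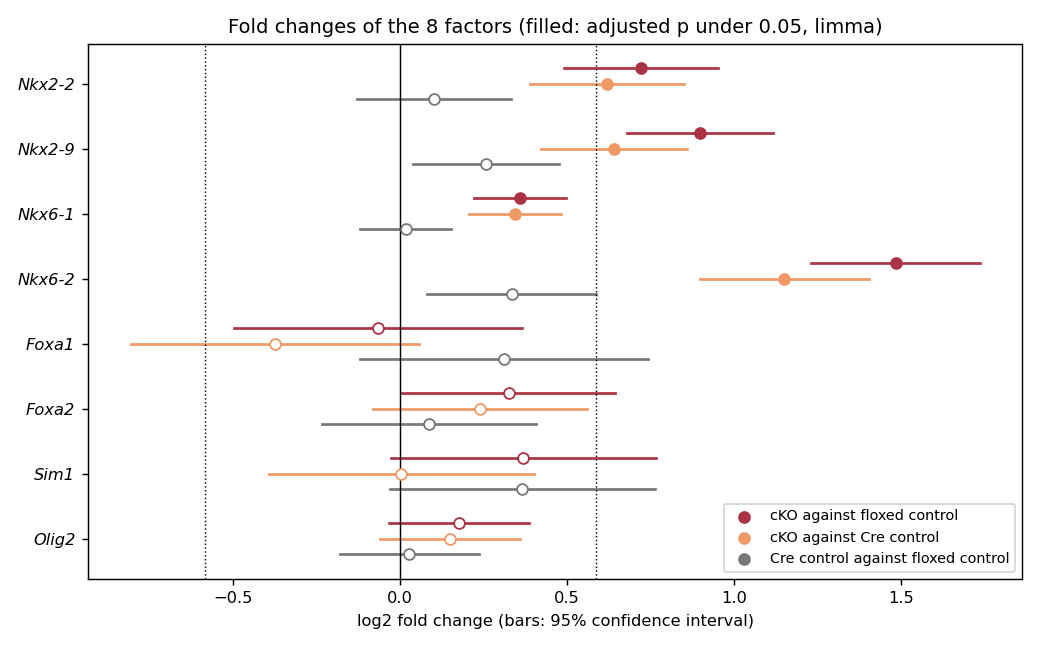
Log2 fold change (horizontal axis) of the 8 genes in the 3 comparisons; bars are 95% confidence intervals, filled points passed the adjusted p and dotted lines mark a fold change of 1.5. The 4 Nkx genes are filled in both cKO comparisons, led by Nkx6-2 at 1.48 and 1.15, and no point is filled between the controls.

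Foxa1, Foxa2 and Sim1 moved together within genotypes. Replicate 1 held the lowest value of each of these 3 genes in all 3 genotypes. Foxa1 and Foxa2 were highest in the same library of each genotype, floxed control replicate 2, Cre control replicate 3 and cKO replicate 2, and Sim1 was highest in replicate 2 of each. Nkx6-2 did not share this order and was lowest in replicate 2 of each genotype. The order was noticed in these values and has no test, and the replicate numbers carry no stated pairing. Genes of the forebrain also differed between libraries of a genotype, with Nkx2-1 of the hypothalamus at 5.87, 6.82 and 7.33 and Dlx1 of the forebrain at 5.33, 6.69 and 7.75 in the 3 Cre control libraries; their part in the Foxa and Sim1 values was not tested.

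**Figure D3:**
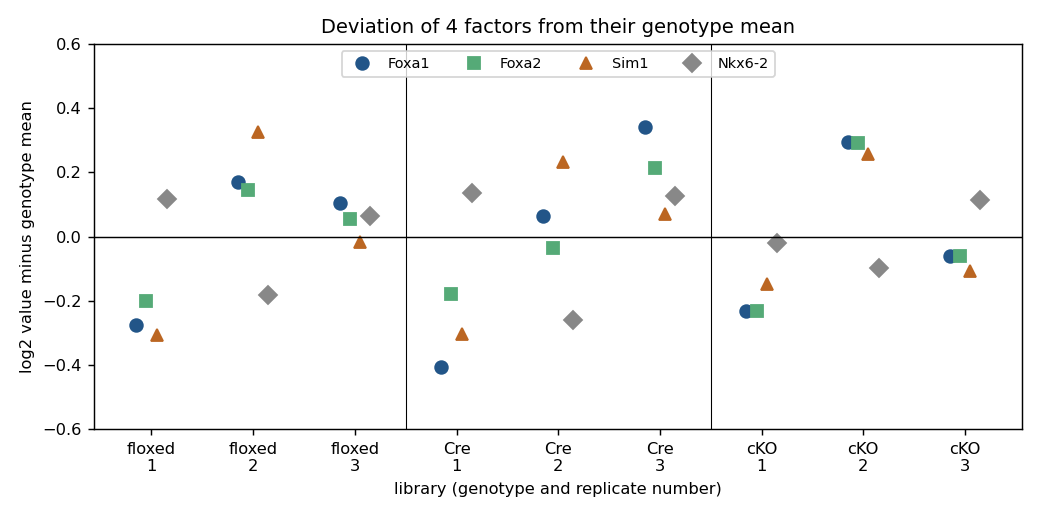
Log2 value minus the mean of its genotype (vertical axis) for Foxa1, Foxa2, Sim1 and Nkx6-2 in each library (horizontal axis). Foxa1, Foxa2 and Sim1 lie below 0 in replicate 1 of each genotype, where Nkx6-2 lies above 0 in the controls and near 0 in the cKO.

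Ratios within a library remove what 2 related genes share there, and 4 such ratios, chosen after the values had been seen, are given as a description with no test. Only their differences between libraries are read, since it is not stated whether levels are per length. Of single genes tested, 14.7% had every cKO library above every control, and the share of gene pairs with such ratios was not counted. The log2 ratio of Foxa2 to Foxa1 was -0.22, -0.32 and -0.34 (floxed controls), -0.29, -0.62 and -0.65 (Cre controls) and 0.097, 0.094 and 0.095 (cKO). The 3 cKO libraries nearly coincided and lay above all controls. The difference between the cKO and the 6 controls was 0.50. From the floxed control alone the cKO differed by 0.39 and from the Cre control alone by 0.62. Without any 1 library it kept its sign.

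The ratio of Nkx6-2 to Nkx6-1 had means of -0.060 ± 0.20 (floxed control), 0.26 ± 0.25 (Cre control) and 1.06 ± 0.15 (cKO, SD, n = 3 each). The cKO exceeded the mean of the controls by 0.97, with no overlap between libraries. By contrast, the ratio of Nkx2-9 to Nkx2-2 was -2.52 ± 0.23 in the controls (SD, n = 6) and -2.42 ± 0.29 in the cKO (SD, n = 3), a difference of 0.098, with overlapping libraries. Olig1 lies beside Olig2 and acts in the same lineages. The ratio of Olig2 to Olig1 was 0.29 ± 0.12 in the controls (SD, n = 6) and 0.74 ± 0.18 in the cKO (SD, n = 3), higher in all 3 cKO libraries than in the 6 controls (difference 0.45). Against both controls together, Olig1 fell by 0.29, and the log2 fold change of Olig2, 0.16, did not pass, so the fall of Olig1 was the larger part.

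**Figure D4:**
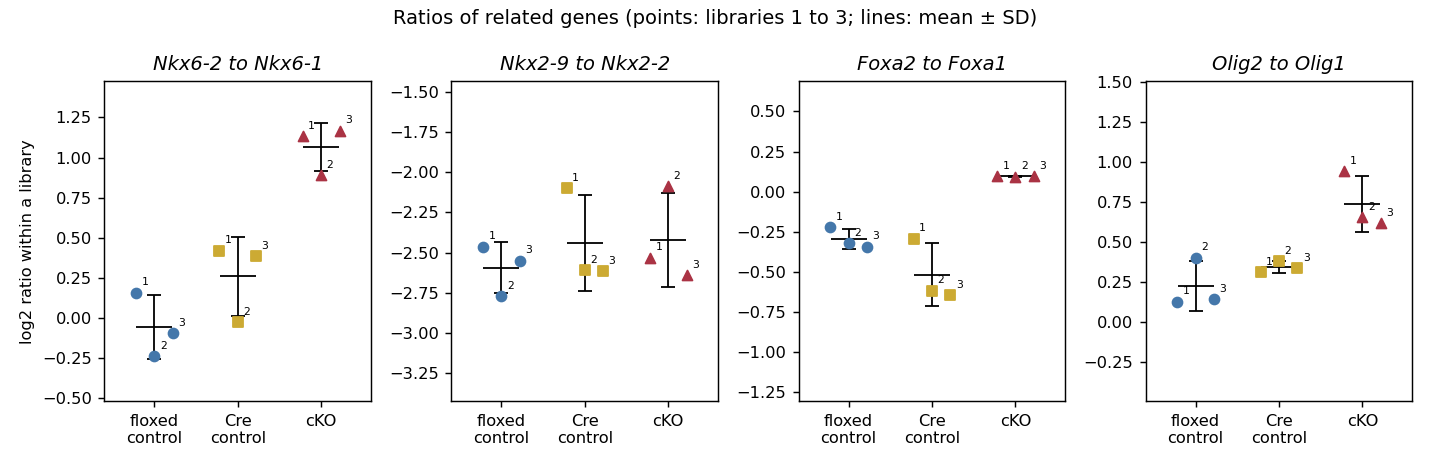
Log2 ratio of 2 related genes within each library (vertical axis, the same span in each panel) by genotype; numbered points are libraries and lines are the mean ± SD (n = 3). The cKO libraries lie above all controls for Nkx6-2 to Nkx6-1, Foxa2 to Foxa1 and Olig2 to Olig1, and among them for Nkx2-9 to Nkx2-2. The ratios were chosen after the values had been seen, and the share of gene pairs that separate so was not counted.

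Other genes of the same families gave a mixed picture. Of 14 Nkx, Foxa, Sim and Olig relatives, 7 reached the minimum for testing, and Nkx2-5 and Nkx3-2 were listed at 0 in every library. Nkx1-2 and Olig3 were higher in the cKO than in either control, and Olig1 was lower than in the floxed control, where 18.8% of all genes passed as lower, beside 4.85% against the Cre control. Olig3, a factor of dorsal progenitors, was at 7.75, 7.87 and 8.02 (floxed controls), 7.53, 7.71 and 7.37 (Cre controls) and 8.27, 8.25 and 8.06 (cKO). It rose by 0.31 (adjusted p = 0.0329) and 0.65 (adjusted p = 0.00814) in turn. The rise of Nkx1-2 was 0.28 (adjusted p = 0.0259) and 0.41 (adjusted p = 0.0212), and the fall of Olig1 was to 7.48 ± 0.14 from 7.82 ± 0.16 (SD, n = 3 each, adjusted p = 0.0380). Against the floxed control, the number of relatives passing as higher dropped from 2 to 0 without floxed control replicate 1 or 2 or cKO replicate 1 or 2 and to 1 without cKO replicate 3, and the call of Olig1 was lost without floxed control replicate 1 or 3 or cKO replicate 1 or 2. Relative to the Cre control, Olig3 passed in all 6 fits that left out 1 library, while Nkx1-2 lost its call in 4 of them, those without Cre control replicate 3, cKO replicate 1, cKO replicate 2 or cKO replicate 3 (adjusted p between 0.0523 and 0.0691). Without Cre control replicate 1, Nkx2-1 (adjusted p = 0.0230), Nkx2-4 (adjusted p = 0.0119), Sim2 (adjusted p = 0.0113) and Olig1 (adjusted p = 0.0431) passed as lower, where none of these 4 had passed with all libraries. Calls rose over all genes in that fit too, to 3292 of 14029 from 1363 with all libraries.

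The hedgehog pathway genes, 13 of 13 tested, moved in both directions. Against the floxed control 7 passed as higher and 2 as lower, with a median log2 fold change of 0.25, and against the Cre control 4 passed as higher and 1 as lower, with a median of 0.16 (all genes tested, 0.011 and 0.012). Gli1, the activator that Shh itself induces, was at 8.62 ± 0.081, 8.65 ± 0.044 and 9.70 ± 0.10 in floxed control, Cre control and cKO (SD, n = 3 each), a rise of 1.08 (adjusted p = 3.17e-05) and 1.05 (adjusted p = 7.49e-05). Hhip, a secreted Shh antagonist, rose by 1.34 (adjusted p = 3.17e-05) and 1.28 (adjusted p = 7.49e-05). Ptch1, the Shh receptor that is also a target of the pathway, rose by 0.67 over the floxed control, and the Cre control was exceeded by 0.75 (adjusted p at most 5.06e-04). These 3 genes passed in all fits that left out 1 library.

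Shh, the ligand, did not pass. It was at 9.22, 9.50 and 9.50 (floxed controls), 9.42, 9.56 and 9.79 (Cre controls) and 9.42, 9.77 and 9.30 (cKO), with log2 fold changes of 0.092 (adjusted p = 0.608) and -0.092 (adjusted p = 0.676). Its libraries overlapped between all genotypes, as did those of Foxa1 and Foxa2. Cdon, a co-receptor, fell by 0.26 from the floxed level (adjusted p = 0.0125) and by 0.32 from the Cre level (adjusted p = 0.0200). The latter call was lost without Cre control replicate 2, Cre control replicate 3, cKO replicate 2 or cKO replicate 3 (adjusted p between 0.0523 and 0.0619). Boc, another co-receptor, fell by 0.23 from the floxed level (adjusted p = 0.0479), a call lost without floxed control replicate 1, floxed control replicate 3, cKO replicate 2 or cKO replicate 3 (adjusted p between 0.0903 and 0.172).

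Of 9 floor plate genes, in which Foxa1 and Foxa2 were not counted, 0 passed in any comparison by limma. Their median log2 fold changes were -0.0098 (from floxed) and -0.14 (from Cre controls). Lmx1a, a factor of the midbrain floor plate and dopaminergic progenitors, was at 9.33, 9.63 and 9.58 (floxed controls), 9.36, 9.79 and 9.84 (Cre controls) and 9.16, 9.54 and 9.15 (cKO), lowest in replicate 1 of each control. Corin, a protease of the midbrain floor plate, was at 8.50, 8.77 and 8.71, then 8.67, 8.91 and 8.99, then 8.57, 8.77 and 8.48 in the same order. Without Cre control replicate 1, where Foxa1 was also the lowest of its group, Lmx1a (adjusted p = 0.0159), Lmx1b (adjusted p = 0.0100) and Corin (adjusted p = 0.0398) passed as lower and Spon1 (adjusted p = 0.0484) as higher in the cKO than in the Cre control. That fit passed 3292 of all genes tested, beside 1363 with all libraries. Without floxed control replicate 1, Foxj1 passed as lower than in the floxed control (adjusted p = 0.00667).

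Neuronal genes of the ventral midbrain fell more often than they rose. Of 13, 2 passed as higher and 6 as lower against the floxed control (median -0.31), and 2 as higher and 4 as lower against the Cre control (median -0.16). The genes that were higher in both were Helt and Gata2, factors of the GABAergic lineage. Helt was at 8.11 ± 0.19, 8.27 ± 0.11 and 9.17 ± 0.083 in floxed control, Cre control and cKO (SD, n = 3 each) and rose by 1.06 (adjusted p = 1.96e-04) and 0.90 (adjusted p = 0.00167). Gata3 of the same lineage was lower than in the floxed control by 0.31 (adjusted p = 0.0119), was at 10.18 ± 0.031 in the cKO beside 10.17 ± 0.14 in the Cre control (SD, n = 3 each, adjusted p = 0.965), and Tal1 and Tal2 did not pass in either comparison. The genes that were lower in both were Pou4f1 of the red nucleus and tectum, and Pitx3, Th and Slc6a3 of dopaminergic neurons. Pou4f1 fell by 0.60 (adjusted p = 0.00148) and 0.61 (adjusted p = 0.00896), and Th, the rate-limiting enzyme of dopamine synthesis, fell by 0.47 (adjusted p = 0.00557) and 0.45 (adjusted p = 0.0273). Against the Cre control, only Helt and Pou4f1 passed in all 6 fits that left out 1 library, and only 1 of the 4 lower genes remained past the limit in the fits that left out Cre control replicate 2, Cre control replicate 3 or cKO replicate 1.

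Factors of dorsal and intermediate domains, 11 of 11 tested, were split. Against the floxed control Dbx1, Dbx2, Msx1 and Msx2 passed as higher and Pax3, Pax7, Msx3 and Zic1 as lower (median 0.025), and against the Cre control Dbx2 passed as higher and Zic1 as lower (median -0.018). Dbx2, an intermediate progenitor factor, rose by 0.34 (adjusted p = 0.00217) and 0.28 (adjusted p = 0.0231). Pax7, a dorsal midbrain factor, was at 10.61, 10.27 and 10.38 (floxed controls), 10.19, 10.25 and 10.33 (Cre controls) and 9.73, 10.01 and 10.09 (cKO), a fall of 0.48 from the floxed level (adjusted p = 0.00595), and its log2 fold change of -0.32 from the Cre level did not pass (adjusted p = 0.0783). Several of these calls were lost when 1 library was left out. Over all genes tested, such fits gave 3606 to 4821 passing genes against the floxed control, beside 5380 with all libraries. Against the Cre control they gave 237 to 3292, beside 1363. Msx2 lost its call without floxed control replicate 3 or cKO replicate 1 (adjusted p = 0.0507 and 0.0515), Pax3 without floxed control replicate 1 or cKO replicate 2 (adjusted p = 0.0517 and 0.0503) and Msx1 without floxed control replicate 1, floxed control replicate 3, cKO replicate 1 or cKO replicate 2 (adjusted p between 0.0806 and 0.150). Zic1 lost its call against the Cre control without Cre control replicate 2 (adjusted p = 0.0517). The call of Dbx2 against the Cre control was lost without Cre control replicate 2, Cre control replicate 3, cKO replicate 2 or cKO replicate 3 (adjusted p between 0.0509 and 0.0727).

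**Figure D5:**
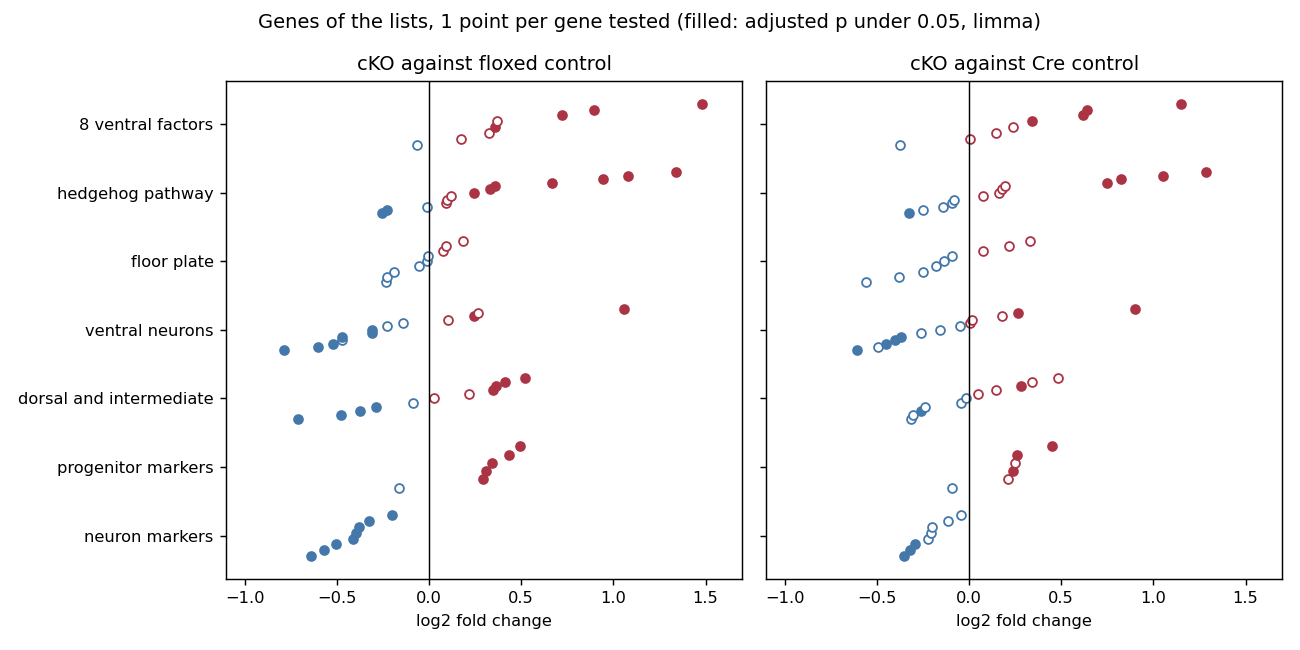
Log2 fold change (horizontal axis) of each tested gene of 7 lists in the cKO, relative to floxed (left) and Cre (right) controls; filled points passed the adjusted p, and the height within a list only orders the genes. The 4 filled ventral factors are the Nkx genes, and no floor plate gene is filled in either comparison.

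Markers of cell classes moved with genotype too. Of 6 progenitor markers, 5 passed as higher than in the floxed control and 3 as higher than in the Cre control (1 without cKO replicate 1, 4 without Cre control replicate 1 or cKO replicate 3). In the remaining fits against the Cre control, Sox2 lost its call without Cre control replicate 2, and Vim without Cre control replicate 3 or cKO replicate 2. The summed level of the 6 progenitor markers, as log2 of the summed linear values, was 16.33 to 16.40 in the floxed control, 16.35 to 16.47 in the Cre control and 16.56 to 16.65 in the cKO. Of 8 neuron markers, 8 passed as lower when compared with the floxed control, and 7 in each of the 6 fits that left out 1 library, where Elavl4 lost its call. Compared with the Cre control 3 of the 8 passed as lower (6 without Cre control replicate 1, 2 without cKO replicate 3 and 0 in the other 4 fits). Summed levels of the 8 were 16.95 to 17.06 (floxed control), 16.63 to 16.94 (Cre control) and 16.47 to 16.63 (cKO). Of the progenitor markers, Nes had the largest rise, 0.50 and 0.45 in turn. The rises of Nkx6-2, Nkx2-9 and Nkx2-2 were larger than this in both comparisons, and that of Nkx6-1, 0.36 and 0.34, was smaller. The part of cell composition in the Nkx changes was not tested.

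Of 6 blood markers, 5 passed as higher against the floxed control (0 without cKO replicate 1, 1 without floxed control replicate 1 or cKO replicate 3, 2 without floxed control replicate 3, and 6 without replicate 2 of either genotype) and 2 against the Cre control (4 without cKO replicate 2, 3 if Cre control replicate 1 was left out and 0 in the other 4 fits), with summed levels of 17.16 to 17.93 in the floxed control, 17.43 to 17.64 in the Cre control and 17.80 to 18.76 in the cKO. Of 7 hindbrain markers, 5 were tested and Hoxa2, Hoxb2 and Hoxb3 passed as lower against the floxed control (Hoxb3 not without cKO replicate 3, adjusted p = 0.0529), with 0 of 5 against the Cre control. Their summed level was 8.94 to 9.41 in the floxed control, 8.66 to 9.01 in the Cre control and 8.80 to 8.89 in the cKO. Of 4 meninges markers, 3 passed as higher against the floxed control (4 without floxed control replicate 2, 1 in the other fits that left out 1 library) and 0 against the Cre control. Of the 3 oligodendrocyte lineage markers, Pdgfra passed as higher against the floxed control, a call kept only without floxed control replicate 2, while Sox10 and Cspg4, beside Olig2, did not pass. Of 4 endothelial markers 1, Pecam1, passed as higher than in the floxed control (2 without floxed control replicate 2 and 0 in the other 5 fits) and 0 than in the Cre control, and of 4 microglia and 5 tested forebrain markers 0 passed in any comparison by limma (Csf1r passed without floxed control replicate 2, Dlx1 without Cre control replicate 1 and Six3 without Cre control replicate 3). The 4 Nkx genes passed against the Cre control as well. Hindbrain and meninges markers did not pass there, while 3 progenitor and 2 blood markers passed as higher and 3 neuron markers as lower. The part of these tissues and cell classes in the Nkx values was not tested.

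Over the 9 libraries, the genes whose log2 values followed a factor most closely were found by Pearson's r over all genes tested, as a description, since these libraries share 3 genotypes and each factor is set against all genes tested. For Nkx6-1 they were Shisal1 (r = 0.987) and Bnip3 (r = 0.971), and for Nkx6-2 they were Eif4b (r = 0.989), Kars (r = 0.988) and Fam181b (r = 0.986). For Nkx2-2 they were Phf10 (r = 0.985), Ier2 (r = 0.982) and Eif3l (r = 0.981), and for Nkx2-9 they were Pmpcb (r = 0.987), Gpsm2 (r = 0.975) and H2afx (r = 0.973). Foxa1 was followed by Corin (r = 0.948), Ttc6 (r = 0.938) and Gfra2 (r = 0.935), and Foxa2 by Asb4 (r = 0.926), H2-D1 (r = 0.912) and Tox2 (r = 0.910). Sim1 was followed by Abca9 (r = 0.980), Cdh5 (r = 0.953), a gene of endothelial cells, and Fxyd5 (r = 0.948). Olig2 was followed by Uso1 (r = 0.962), Disp1 (r = 0.952), which releases Shh from the cell, and Fads1 (r = 0.951). Of these genes, Corin belongs to the floor plate list and Disp1 to the pathway list.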

How the data were processed

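Poly-A selected RNA of 9 fetal midbrains was sequenced by the authors, who deposited 1 table with a log2 value per gene and library. The values were normalized between libraries, and the transformation is not given in the sources used here. The submitters' processing notes name FastQC 0.10.1, kallisto 0.46.1, DESeq2 and mm10, without roles. Of 27360 rows, 5764 carry no gene name. Taken out of the log, the values of a library summed to 26609942 to 27496648, and depth is unknown.

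Named genes that reached 1 cpm of this sum in 3 or more libraries were tested, 14029 in all, with 118 rows of repeated names left out. A model of genotype means over the 9 libraries was run by limma 3.58.1 in R 4.3.3 (eBayes with trend, two-sided, Benjamini-Hochberg adjustment), and the procedure was tested on simulated data. Ratios within a library were given as a description, with no test. The 8 genes and the lists were chosen with earlier results of these data known. The genes named are the 8, the genes of the lists, and for each of the 8 the 3 genes with the highest Pearson correlation, and some of them are not reported here. Gpr161, Wnt1 and Inpp5a were added after their values were seen. Positions are from GENCODE M21 on GRCm38.

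After the genotype means were removed, the correlation of libraries sharing a replicate number had a median of 0.10 (range -0.027 to 0.26, 9 pairs). Where the replicate numbers differed, the median was -0.053 (range -0.28 to 0.16, 18 pairs). Libraries sharing a number were thus more alike at the median, with overlapping ranges, and this difference was not tested. Because no pairing is stated, the main fits left the numbers out, and a replicate block was run as an alternative.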

Additional observations from a re-analysis of the deposited data

How the results depend on the processing

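Over 325 combinations of gene, comparison and alternative (filters on low values, libraries in the fit, replicate block, no trend, 2 other scalings, all 6 controls as 1 group, each library left out), 309 kept direction and side of the threshold, 1 lost the call, 5 gained one and 10 changed sign, all of these in fold changes that had not passed. Sim1 against the Cre control was -0.0066 with libraries centred on their medians, and from -0.15 (without Cre control replicate 1) to 0.12 when 1 library was left out, also below 0 (-0.12) without cKO replicate 2. Foxa1 against the floxed control was from -0.21 to 0.050 when 1 library was left out, above 0 without floxed control replicate 2 (0.019) and cKO replicate 1 (0.050). Between the controls, the range was -0.021 to 0.18 for Foxa2, below 0 without floxed control replicate 1 (-0.015) and Cre control replicate 3, -0.033 to 0.066 for Nkx6-1, below 0 without floxed control replicate 1, and -0.052 to 0.15 for Olig2, below 0 without Cre control replicate 2 (-0.013) or 3. The ratio of Nkx2-9 to Nkx2-2 differed between cKO and controls by -0.068 (without cKO replicate 2) to 0.21. The cause of these changes was not tested. With the replicate block, 6 of the 8 genes passed against the floxed control, Foxa2 (adjusted p = 0.0281) and Sim1 (adjusted p = 0.00520) in addition. Over all genes, 5683 of 14029 passed in that fit, beside 5380 without the block. Against the Cre control 4 of the 8 passed with the block, where 1774 of all genes did, beside 1363 without it. The numbers are not known to pair the samples. Olig2 passed against the floxed control with only the 6 libraries compared (adjusted p = 0.0401), a fit in which 6209 of all genes passed. Leaving out 1 library gave 4 to 5 genes past the adjusted p and 3 DEGs against the floxed control, and 3 to 5 and 2 to 3 against the Cre control. At an unadjusted p under 0.05, 2 genes passed between the controls. At least 5 cpm in 3 libraries left 7 of the 8 genes, without Nkx2-9. The ratio, the list fits and the unadjusted limit were chosen after seeing the data.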
